A study of Mus musculus with 6 samples.

Results

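The 40 genes described here encode chromatin remodelers and histone modifiers: ATP-driven enzymes that move nucleosomes, enzymes that write or erase marks on histone tails, and close partners of both. They were chosen by name with earlier results of these data known, and each was found in the files, which hold 24411 genes in all. Their RNA was measured by sequencing in corpus callosum that was dissected by hand from frozen sections of B6 mouse brain on postnatal day 4. The tract carries the axons of cortical projection neurons to the other hemisphere, and the study asked how the RNA mark N6-methyladenosine (m6A) acts in growing axons. Mettl14 conditional knockout (cKO) tissue gave 3 libraries and wild-type (WT) tissue the other 3. METTL14 partners METTL3 in the methyltransferase that places m6A on mRNA. The labels give neither the Cre driver nor the cells it acts in, and they do not name the animal behind each library, so p-values cover the spread from library to library, which may be technical.

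Chromatin remodelers of the SWI/SNF (BAF), CHD, ISWI and INO80 families use ATP to slide, evict or exchange nucleosomes. Histone acetyltransferases and KMT2 methyltransferases mark active enhancers and promoters, and deacetylases and demethylases take such marks away. Many of these genes are known from human neurodevelopmental syndromes, in which a loss of function of 1 gene copy is enough to disturb brain development. Their proteins act in nuclei, whereas the tissue was taken for its axons; the tract also holds glia, their precursors and migrating neurons, and bulk RNA does not separate these sources.

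Total expected counts, the fragment numbers estimated by RSEM, lay between 670462 and 1208382 in cKO libraries and between 843647 and 1268430 in WT libraries. Mettl14 itself had 2, 7 and 2 counts in cKO replicates 1 to 3, against 11, 8 and 5 in the WT replicates. These values overlapped when scaled to library size and lay below the filter, so the gene was not tested. Xist was read only in cKO libraries and Eif2s3y, on the Y chromosome, only in WT libraries, so genotype and sex cannot be told apart. No chromatin gene of the 40 lies on a sex chromosome. Both replicate 2 libraries had the largest totals and the shortest mean fragments in their groups, 293 bases in cKO and 304 bases in WT, against 332 to 350.5 bases in the other libraries. Markers of other cells also differed. The 9 oligodendrocyte markers summed to between 2.002 and 10.8 CPM, the library-scaled count, in cKO and between 2536 and 4122 CPM in WT, all 6 that could be tested were called lower, and Mog, Mag, Myrf and Enpp6 were at 0 in every cKO library; Mobp was at 0 in all 6 libraries. The 8 astrocyte markers summed to between 1187 and 1486 CPM in cKO and between 5040 and 5776 CPM in WT, and 1 of the 6 tested was called lower. The 8 markers of excitatory neurons summed to between 5342 and 6094 CPM in cKO and between 202.5 and 707 CPM in WT, and 1 of the 6 tested was called higher. Fewer cells of a type and less RNA per cell cannot be told apart in such data.

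None of the chromatin genes passed the test between genotypes. Of the 40 genes, 38 had enough counts to be tested, and edgeR's quasi-likelihood test called 0 higher and 0 lower at an adjusted p below 0.05, with the lowest adjusted p at 0.19. Over all 5918 genes tested, 0.49% were called higher and 0.422% lower in cKO. At an unadjusted p below 0.05, 6 of the 38 were higher (15.8%, against 7.16% of all genes tested) and 1 was lower, against 5.41% of all. The 6 were Kmt2b, Kdm5b, Chd2, Chd3, Arid1b and Smarca2, and the 1 was Chd7. Because earlier results were known when the genes were chosen, these and the following shares describe the list and are no independent test. The fitted log2 fold change was positive in 30 of the 38 genes and negative in 8, and its median was 0.49, whereas 53.9% of all genes tested were positive, 46.1% were negative, and their median was 0.07. All 3 cKO libraries lay above all 3 WT libraries in 3 of the 38 genes, or 7.89%, which is below the 10.4% of all genes tested; 1 gene, or 2.63%, lay below in all 3, against 9.45% of all. DESeq2, run on the same counts, called Kmt2b higher and Chd7 and Smarca5 lower, where it called 2.82% of all genes higher and 1.61% lower. limma-voom called 0 of the chromatin genes, where it called 0.372% of all genes higher and 0.338% lower.

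**Figure D1:**
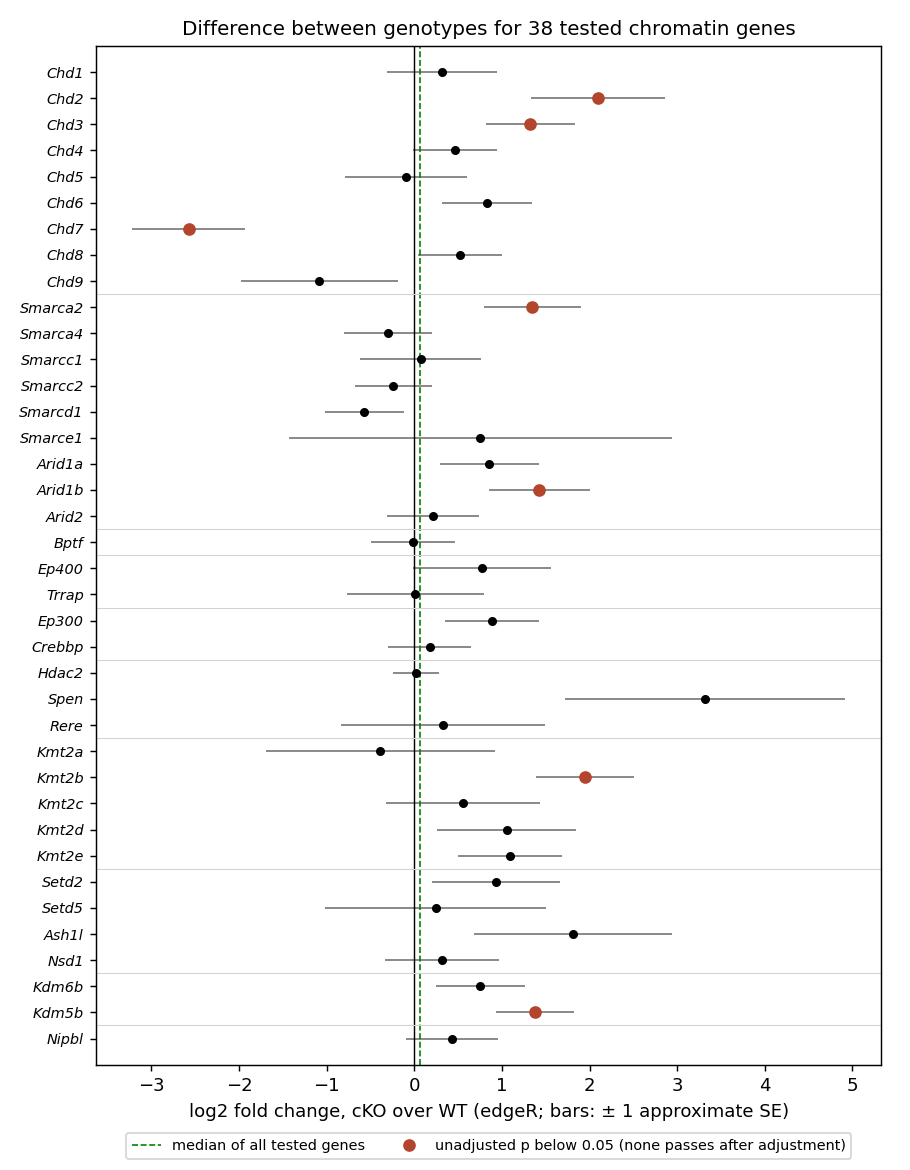
Log2 fold change of cKO over WT for the 38 tested chromatin genes, ordered by role, with bars of 1 approximate standard error to either side; the dashed line is the median of all genes tested, 0.07. Points lie to the right of 0 for 30 genes and to the left for 8, and the 7 coloured points have an unadjusted p below 0.05, of which none passes after adjustment.

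The chromatin genes varied between libraries of the same genotype, and a few libraries held most of the high values. Of the 38 tested genes, 18 had their highest CPM in cKO replicate 3 (47.4%, against 19.2% of all genes tested), 9 in cKO replicate 2 (23.7%, against 21.9% of all) and 7 in WT replicate 2 (18.4%, against 16.5% of all), which left 4 genes for the other 3 libraries. Summed over the 40 genes, the level was 1482, 1811 and 2536 TPM, the length-scaled level, in cKO replicates 1 to 3, against 1095, 2067 and 1095 TPM in the WT replicates. WT replicate 2 therefore lay above the first and the second cKO library, and the groups overlapped. In 12 of the 38 genes, or 31.6%, the replicate 2 library was the highest of its group in both genotypes, against 22.1% of all genes tested. These 12 were Chd2, Chd4, Chd5, Smarca4, Smarcc1, Smarce1, Hdac2, Kmt2a, Kmt2b, Kmt2c, Setd2 and Setd5. Without cKO replicate 3 the median log2 fold change of the chromatin genes was 0.18, with 24 of 39 tested genes positive. Over all genes tested in that fit the median was 0.11. Without WT replicate 2 the medians were 0.97 for the chromatin genes and 0.15 for all. The cKO replicate 3 library had the lowest total count. Its 6 markers of oligodendrocyte precursors summed to 11.3 CPM, against 971 and 659 CPM in the other cKO libraries. In WT they summed to 2376 to 2895 CPM. Its 8 interneuron markers summed to 21.2 CPM, against 469 and 552.5 CPM in the other cKO libraries and 787 to 954 CPM in WT. Its astrocyte markers, at 1187 CPM, stayed near the 1486 and 1192 CPM of the other cKO libraries. The part of depth, fragment length and cell make-up in these patterns was not tested.

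**Figure D2:**
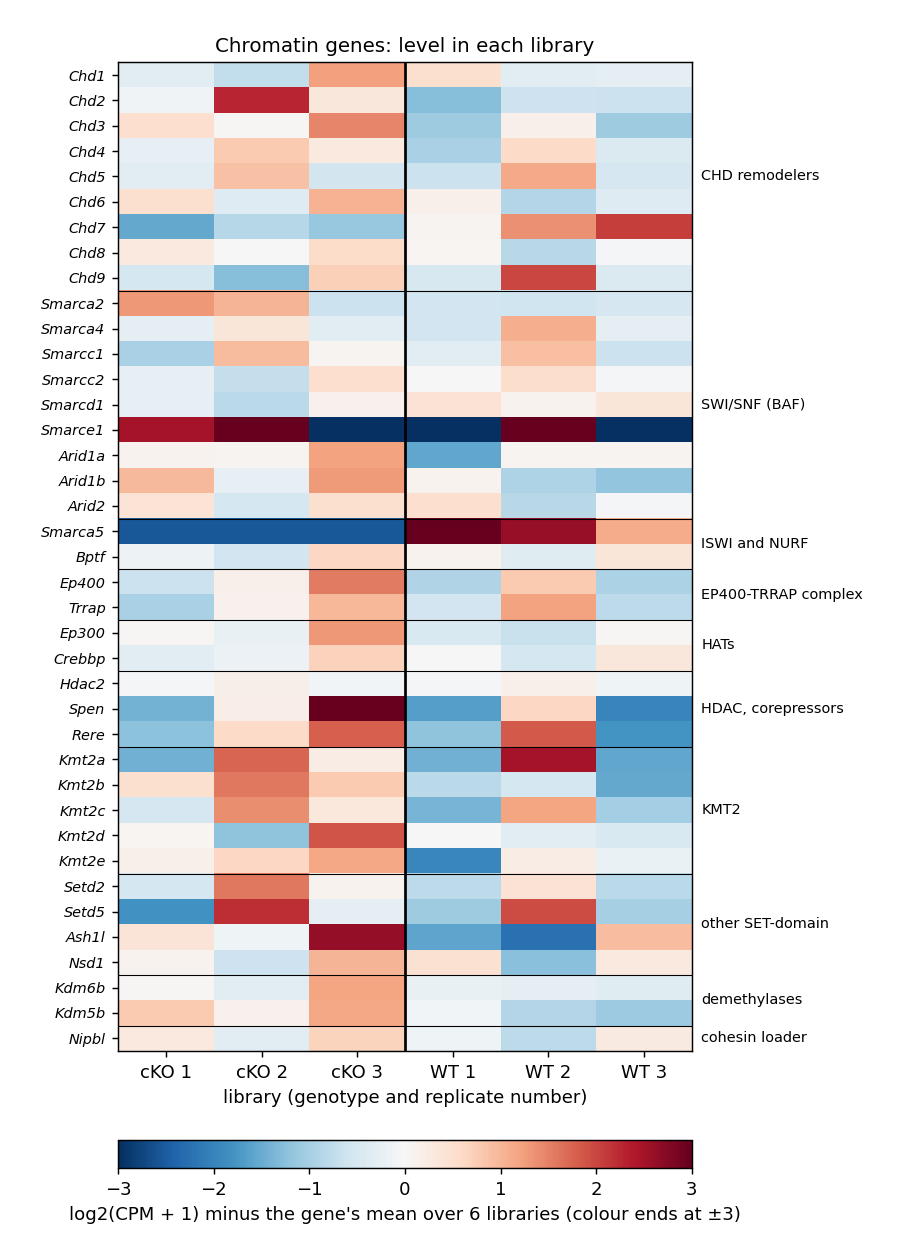
Level of each chromatin gene in each library, as log2(CPM + 1) minus the gene's mean over the 6 libraries, with cKO libraries to the left of the heavy line and WT libraries to the right; Hdac1, listed at 0 throughout, is left out. Red cells gather in the columns of cKO 3, cKO 2 and WT 2, which hold the highest value of 18, 9 and 7 of the 38 tested genes.

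Levels between genes were compared per length, in TPM. Hdac2, a catalytic subunit of deacetylase complexes, was the highest of the 40 at 420.4 ± 56.4 TPM in cKO and 432.5 ± 72.0 TPM in WT (SD, n = 3 each). Chd3, a NuRD ATPase, followed at 293 ± 204.5 TPM in cKO and 117 ± 70.3 TPM in WT. Its relative Chd4 stood at 162 ± 56.3 TPM in cKO and 123 ± 76.3 TPM in WT. The BAF ATPase genes came next, Smarca4 at 106 ± 23.6 TPM in cKO and 140 ± 102 TPM in WT, and Smarca2 at 165 ± 111 TPM in cKO and 41.5 ± 7.49 TPM in WT. In WT the level of Hdac2 lay above all others by more than these SDs, and in cKO its mean ± SD overlapped that of Chd3. Library by library, every WT value of Smarca2 lay below every WT value of Chd3, Chd4 and Smarca4, and every cKO value of Chd3 lay above every cKO value of Smarca4. At the low end of the mean over all 6 libraries, among tested genes, was Arid1b, at 3.25 ± 1.96 TPM in cKO and 1.2 ± 0.682 TPM in WT. Its neighbour in this order, Kmt2d, at 3.22 ± 3.73 TPM in cKO and 1.44 ± 0.31 TPM in WT, did not differ from it beyond the SDs.

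The KMT2 proteins are methyltransferases of histone H3 lysine 4, with KMT2A and KMT2B acting mostly at promoters and KMT2C and KMT2D mostly at enhancers. Of the 5 genes, 4 had a positive log2 fold change, the median was 1.06, and 0 passed the test. Kmt2b (chr7:30568855-30589056, GRCm38) had 96.8, 210.2 and 120.2 CPM in cKO replicates 1 to 3, against 39.3, 47.4 and 23.3 CPM in the WT replicates. Every cKO library lay above every WT library, and replicate 2 was the highest in both groups. Its log2 fold change was 1.95 (SE 0.56), with an adjusted p of 0.238 in edgeR's quasi-likelihood test and 0.0178 in DESeq2. Leaving out both replicate 2 libraries gave 1.79.

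Kmt2a, whose human counterpart is known from leukaemia rearrangements and which maintains Hox gene expression, varied more between replicates than between genotypes. It had 20.2, 192 and 66.5 CPM in cKO, against 20.2, 326 and 18.6 CPM in WT. The highest value of each group was replicate 2 and the other WT values were close to the lowest cKO value. Its log2 fold change was -0.39 (SE 1.31, adjusted p = 0.96 by edgeR), but 1.15 without both replicate 2 libraries. Kmt2c showed the same split, with 47.1, 177 and 83.5 CPM in cKO and 24.7, 152 and 32.6 CPM in WT. Kmt2d was instead high in cKO replicate 3, at 93.4 CPM, with 25.6 and 10.01 CPM in the other cKO libraries and 17.5 to 24.7 CPM in WT. Kmt2e, which carries a SET domain but is not known as an active methyltransferase, had 378, 525.5 and 758 CPM in cKO and 86.5, 394 and 298 CPM in WT, with a log2 fold change of 1.09 (SE 0.59) and an edgeR adjusted p of 0.522.

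The CHD remodelers share paired chromodomains and act on enhancers, promoters and elongating genes. Of the 9 genes, 6 had a positive log2 fold change and 3 a negative one, and 0 passed the test. By edgeR, 3 of the 9 had an unadjusted p below 0.05, against 744 of all 5918 genes tested. Chd2 and Chd3 were higher in cKO and Chd7 was lower. Chd7 (chr4:8690402-8868449), the gene of CHARGE syndrome, which is also known for its role in the oligodendrocyte lineage and in neural progenitors, was the only tested chromatin gene with all cKO libraries below all WT libraries. It had 26.9, 43.0 and 35.4 CPM in cKO, against 84.2, 206 and 340 CPM in WT. The cKO libraries lay close together, whereas the WT libraries were spread over 4.03-fold. The log2 fold change was -2.57 (SE 0.65), with an adjusted p of 0.19 in edgeR's quasi-likelihood test and 0.00651 in DESeq2. It was -2.75 without both replicate 2 libraries. Beside it, the oligodendrocyte and precursor markers were also lower in cKO: 6 of 6 precursor markers had a lower mean there, Sox10 and Matn4 were at 0 in every cKO library, and 1 of the 3 tested was called. Summed markers of astrocytes and of dividing cells were lower in cKO too. Across WT replicates 1 to 3 the precursor markers summed to 2834, 2376 and 2895 CPM, an order that Chd7 did not follow. The part of any of these cells in the Chd7 difference was not tested.

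Chd2 (chr7:73426652-73541746), an epilepsy gene whose protein acts at transcribed genes, had 39.0, 211 and 53.8 CPM in cKO, against 16.9, 27.3 and 26.8 CPM in WT. The groups did not overlap, but 1 cKO library lay far above the others. The log2 fold change was 2.09 (SE 0.77, adjusted p = 0.334 by edgeR) and 1.09 without both replicate 2 libraries. A neighbouring gene, 1810026B05Rik, shares 539 of the 9036 windows of 50 bases in the transcripts of Chd2, and how the fragments were divided between them is not known.

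Chd3 and Chd4 encode alternative ATPases of the NuRD deacetylase complex, and Chd3 is known to come up in neurons as they leave the cell cycle and migrate. Chd3 (chr11:69343273-69369499) had 1191, 861 and 2337 CPM in cKO, against 401, 945 and 404 CPM in WT. The groups overlapped because WT replicate 2 lay above cKO replicate 2, and cKO replicate 3 was the highest. Its log2 fold change was 1.33 (SE 0.51, adjusted p = 0.355 by edgeR), and 2.14 without both replicate 2 libraries. Chd4 had 500.2, 1018 and 723 CPM in cKO and 302, 880 and 440 CPM in WT, again with replicate 2 highest in both groups, and its log2 fold change was 0.47 (SE 0.48). Chd5, the neuronal member of this subfamily, had 105, 244 and 89.1 CPM in cKO and 84.2, 291 and 92.0 CPM in WT, with a log2 fold change of -0.09 (SE 0.70).

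Chd8, a high-confidence autism gene, was among the steadier members, with 79.3, 64.1 and 94.8 CPM in cKO and 67.4, 36.2 and 62.9 CPM in WT and a log2 fold change of 0.52 (SE 0.48). Chd9 had 10.8, 6.005 and 26.9 CPM in cKO and 11.2, 67.5 and 11.6 CPM in WT. Its negative log2 fold change of -1.08 (SE 0.90, adjusted p = 0.703 by edgeR) rested on WT replicate 2, since it was 0.31 without that library. Chd1 and Chd6 stayed between 10.01 and 42.4 CPM in every library, each with its highest value in cKO replicate 3.

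**Figure D3:**
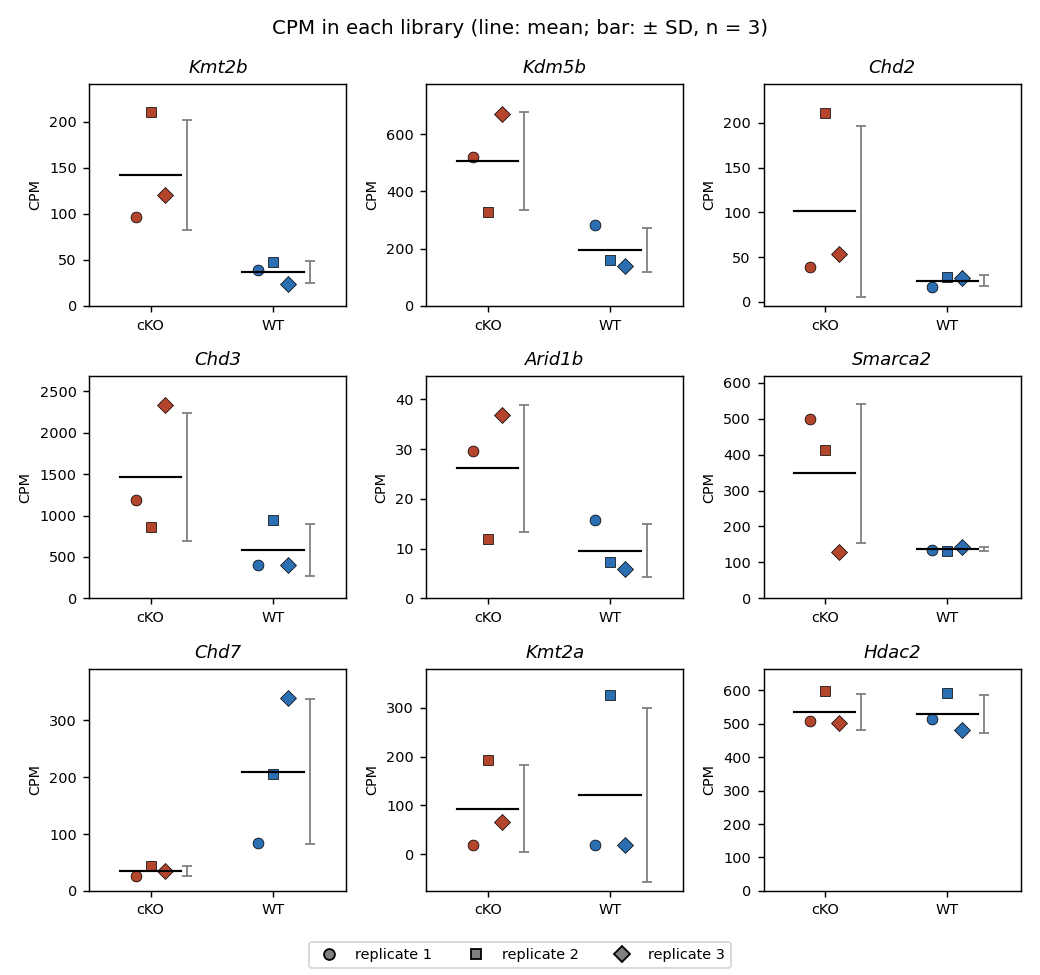
CPM in each library for 9 chromatin genes, cKO to the left and WT to the right in each panel, with the mean as a line, a bar of 1 SD to either side (n = 3) and 1 symbol per replicate number. Kmt2b, Kdm5b and Chd2 do not overlap between genotypes and are higher in cKO, Chd7 does not overlap and is lower in cKO, and Kmt2a shows squares, the replicate 2 libraries, at the top of both groups.

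BAF complexes contain 1 of a pair of alternative ATPases, BRM (Smarca2) or BRG1 (Smarca4), around a core with SMARCC1 or SMARCC2, and ARID1 or ARID2 subunits set the complex type. Of the 9 BAF genes, 6 had a positive log2 fold change and 3 a negative one, and 0 passed the test. The ATPase genes pointed in opposite directions. Smarca2 (chr19:26605073-26778321) had 500.2, 413 and 130.1 CPM in cKO, against 135, 132.5 and 143 CPM in WT. The first and the second cKO library lay far above WT, and cKO replicate 3 lay just below all of WT, whose libraries differed by only 1.08-fold. Its log2 fold change was 1.35 (SE 0.55, adjusted p = 0.387 by edgeR). Smarca4 had 419.5, 649 and 404.5 CPM in cKO, against 337, 1068 and 407 CPM in WT, with a log2 fold change of -0.30 (SE 0.51, adjusted p = 0.897 by edgeR) that turned to 0.40 without WT replicate 2. The ratio of Smarca4 to Smarca2 in TPM was 0.327, 0.637 and 2.60 in cKO, against 2.27, 5.27 and 2.04 in WT. The first and second cKO libraries were thus below 1 and the third within the WT range. These ratios do not compare ATPase transcripts alone. In the first and second cKO libraries, 80.9% and 79.3% of the Smarca2 TPM came from a short transcript without the ATPase, described below. The full-length transcript held 19.1% and 20.7% of 251 and 203 TPM there, while Smarca4 stood at 82.3 and 129.5 TPM. With the full-length transcript alone, Smarca4 thus lay above Smarca2 in these libraries too. In CPM, which is not scaled to length, Smarca4 lay above Smarca2 in cKO replicate 2, at 649 against 413 CPM.

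The high Smarca2 values in those cKO libraries came with a change in which transcript the fragments were assigned to. The files list 2 Smarca2 transcripts. In the GENCODE annotation of GRCm38 the full-length one runs from 26605052 to 26778321 on chromosome 19 in 33 exons, and the short one starts at 26748403, deep inside the gene, and ends at the same base in 9 exons. They share 6 exons from 26751824 on. The short transcript has 708 coding bases that lie in frame at the end of the 4749 coding bases of the full-length transcript, which is the part of BRM with the bromodomain, a reader of acetylated lysine, and without the ATPase. Both sequences are shown because they mark where the transcripts part. In the full-length stretch, bases 4203 to 4262 of that transcript, capitals mark the start of the first shared exon; in the short stretch, bases 301 to 360, capitals mark the start codon.

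Smarca2 full-length: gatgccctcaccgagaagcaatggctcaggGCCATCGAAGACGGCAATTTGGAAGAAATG
Smarca2 short: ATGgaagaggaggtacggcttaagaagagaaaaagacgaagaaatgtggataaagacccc

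The start codon of the short transcript is the last base triplet of the full-length stretch, so the second line begins at the last triplet of the first. RSEM assigned 165, 191 and 88.8 counts to the full-length transcript in cKO and 120, 137 and 109 in WT. These counts are not scaled to library size, and the first and second cKO libraries were the highest for this transcript too. To the short transcript RSEM assigned 207, 222 and 3.21 counts in cKO, against 0, 27.5 and 13.9 in WT. The short transcript thus made up 80.9%, 79.3% and 10.9% of the Smarca2 level in TPM in the cKO libraries, against 0%, 39.9% and 29.97% in the WT libraries. The mean share of the full-length transcript was 43.0% in cKO and 76.7% in WT, the largest difference among the 6 genes with more than 1 transcript and at least 30 counts in every library. The groups overlapped through cKO replicate 3, and the difference was not tested. Fragments within the shared exons fit both transcripts and are divided by estimate. The next largest differences were in Chd5, whose leading transcript held 92.8% in cKO and 75.9% in WT, and in Smarca4, with 48.8% and 39.9%. Smarcc2 lay close to Smarca4, with 54.3% and 45.5%. In each of these genes the libraries of the groups overlapped.

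**Figure D4:**
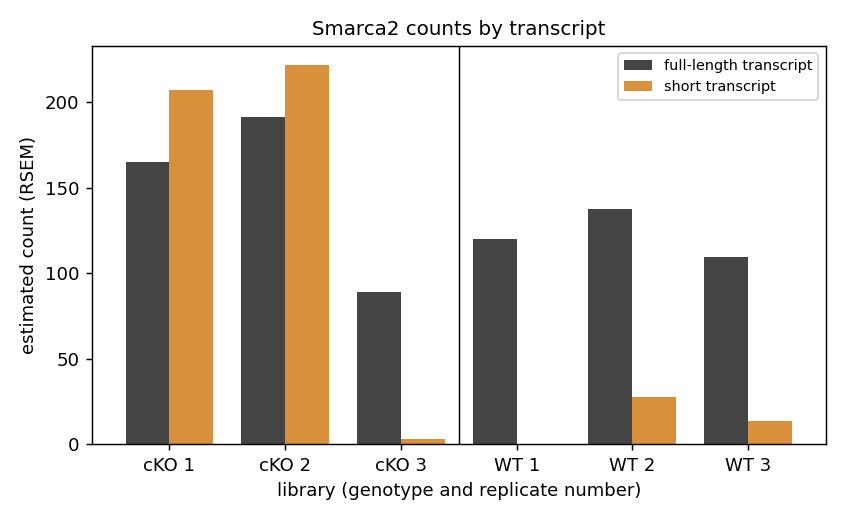
Estimated counts of the full-length (dark) and the short (orange) Smarca2 transcript in each library, with cKO libraries to the left of the line and WT libraries to the right. The short transcript has 207 and 222 counts in the first and the second cKO library and between 0 and 27.5 in the other 4 libraries. The full-length transcript has between 88.8 and 191 counts, with its highest values in the same cKO libraries. Counts are not scaled to library size.

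Among the other BAF subunits, Arid1b (chr17:4994297-5347656), the gene most often altered in Coffin-Siris syndrome, had 29.6, 12.01 and 36.8 CPM in cKO, against 15.7, 7.23 and 5.82 CPM in WT, which correspond to 22, 12 and 26 counts against 14, 9 and 5. The groups overlapped between cKO replicate 2 and WT replicate 1, and the log2 fold change was 1.43 (SE 0.58, adjusted p = 0.382 by edgeR). Arid1a had 384.5, 375 and 823 CPM in cKO and 120.2, 378 and 375 CPM in WT, with a log2 fold change of 0.86 (SE 0.56). Smarcd1 had 43.0, 29.0 and 56.6 CPM in cKO and 69.6, 55.4 and 66.4 CPM in WT, which overlapped narrowly, and its log2 fold change was -0.57 (SE 0.45, adjusted p = 0.688 by edgeR). The core genes Smarcc1 and Smarcc2 had log2 fold changes of 0.07 (SE 0.69) and -0.24 (SE 0.44), and Arid2 of 0.21 (SE 0.52).

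Smarce1, Smarca5 and Hdac1 were the only chromatin genes listed at 0 in any library. Smarce1, a BAF subunit with an HMG box, had 57.8, 163 and 0 CPM in cKO, against 0, 130.1 and 0 CPM in WT, so that replicate 2 was high in both groups and the rest did not follow genotype. Smarca5, the ATPase of ISWI complexes, had 0 counts in each of the 3 cKO libraries, against 76, 43 and 10 counts in WT. A count of 0 allows up to 3 counts, or 2.41 to 4.24 CPM depending on the library. With the pooled cKO count set at 3, the pooled level of Smarca5 was 35.2-fold lower in cKO than in WT. That figure allows for counting error in the cKO zeros only. It leaves out the spread between the WT libraries, which ran from 11.6 to 85.4 CPM. The gene lay below edgeR's filter; DESeq2 gave an adjusted p of 0.00063, and edgeR without a filter 0.27. Hdac1, a deacetylase that can stand in for HDAC2 in the same complexes, was listed at 0 in all 6 libraries.

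These 3 genes also shared the most sequence with other genes. Of the 50-base windows in the annotated transcripts of Hdac1, 1167 of 1989 (58.7%) also occur in transcripts of other genes, mostly in Gm10093, a processed pseudogene on chromosome 17 that is not among the genes of the files. For Smarca5 the share was 35.3%, most often with Gm13135, and for Smarce1 it was 35.1%, most often with Gm8494; the files list neither of these. In the other 37 chromatin genes it lay between 0% and 6.0%, with a median of 0%. The stretch below, bases 601 to 660 of the Hdac1 transcript, is shown with its copies because it illustrates how close they are. Capitals mark the bases that differ from Hdac1.

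Hdac1: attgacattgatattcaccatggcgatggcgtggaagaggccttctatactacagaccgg
Gm10093: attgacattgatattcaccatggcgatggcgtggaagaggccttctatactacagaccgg
Hdac2: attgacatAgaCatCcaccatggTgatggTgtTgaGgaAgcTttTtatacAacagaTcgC

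The pseudogene had 0 differences from Hdac1 over these 60 bases, so these bases alone cannot place a fragment on either, whereas Hdac2 had 13 differences. Mean fragment lengths were 293 to 350.5 bases, so fragments can reach beyond the stretch into bases that may differ. In a wider list of 138 other chromatin genes, only 3 shared at least 30% of their windows. Of the 16 genes at 0 in at least 1 library, 1 did so, Pcgf1, which had a total count of 1. Of the 122 with no library at 0, 2 did so. These are too few genes to tell whether shared sequence goes with zeros. Whether the zeros of Smarca5, Smarce1 and Hdac1 came from the handling of fragments that fit several places was not tested.

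**Figure D5:**
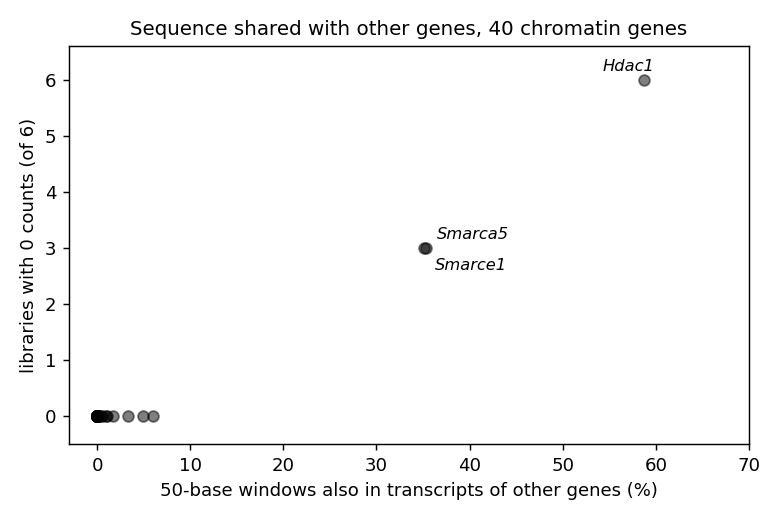
Number of libraries at 0 counts (of 6) against the share of 50-base windows that also occur in transcripts of other genes, 1 point for each of the 40 chromatin genes. Hdac1 (58.7%, 6 libraries), Smarca5 (35.3%, 3 libraries) and Smarce1 (35.1%, 3 libraries) stand apart from the other 37 genes, which lie at or below 6.0% and have no library at 0.

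Hdac2 (chr10:36974297-37001889), which shares no 50-base window with another gene, was the steadiest of the 40. It had 508, 598.5 and 502 CPM in cKO, against 514, 591 and 482 CPM in WT. The groups overlapped throughout, and the log2 fold change was 0.02 (SE 0.26, adjusted p = 0.991 by edgeR), the smallest SE of all 38. The corepressor genes varied more. Spen, which recruits deacetylases to Notch targets and to the inactive X chromosome, had 10.8, 35.0 and 598 CPM in cKO, against 8.98, 47.4 and 6.98 CPM in WT. A single library, cKO replicate 3, made its log2 fold change of 3.32 (SE 1.6, adjusted p = 0.465 by edgeR). Rere, an atrophin-family corepressor, had 17.5, 64.1 and 149.9 CPM in cKO, against 18.0, 154 and 11.6 CPM in WT, with a log2 fold change of 0.32 (SE 1.16).

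Bptf, the histone reader of the NURF complex, gave no sign of a difference beyond its spread, with 32.3, 24.0 and 56.6 CPM in cKO and 39.3, 28.1 and 46.6 CPM in WT and a log2 fold change of -0.02 (SE 0.48). Ep400 and Trrap, the remodeling ATPase and the large scaffold of the TIP60 acetyltransferase complex, varied together between libraries. Ep400 had 69.9, 123 and 330 CPM in cKO and 58.4, 190 and 57.0 CPM in WT, and Trrap had 45.7, 100.1 and 182.5 CPM in cKO and 60.6, 212 and 52.4 CPM in WT. Each genotype thus had 1 library that was high for both genes, the third in cKO and the second in WT. Their log2 fold changes were 0.77 (SE 0.79) and 0.01 (SE 0.78). The paralogous acetyltransferases Ep300 and Crebbp, which acetylate histone H3 lysine 27 at enhancers, had log2 fold changes of 0.89 (SE 0.54) and 0.17 (SE 0.47), and both were highest in cKO replicate 3, at 59.4 and 52.3 CPM.

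The demethylase Kdm5b (chr1:134560178-134632878), which removes methyl groups from histone H3 lysine 4 and so opposes the KMT2 enzymes, had 519, 328 and 670.5 CPM in cKO, against 283, 162 and 139.7 CPM in WT. The lowest cKO library lay above the highest WT library. The log2 fold change was 1.38 (SE 0.45), with an adjusted p of 0.267 in edgeR's quasi-likelihood test, and it was 1.5 without both replicate 2 libraries. Kdm6b, a demethylase of histone H3 lysine 27 that works against Polycomb repression, had 29.6, 23.0 and 66.5 CPM in cKO and 24.7, 23.3 and 22.1 CPM in WT, with a log2 fold change of 0.75 (SE 0.50).

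The 4 SET-domain methyltransferases outside KMT2 all had positive log2 fold changes, from 0.24 to 1.82, and 0 passed the test. Ash1l, a methyltransferase of histone H3 lysine 36 linked to autism and epilepsy, had 95.5, 66.1 and 460 CPM in cKO, against 23.6, 14.5 and 138 CPM in WT. Replicate 3 was the highest of both groups and WT replicate 3 lay above the first and the second cKO library, and the log2 fold change was 1.82 (SE 1.13, adjusted p = 0.587 by edgeR). Setd5 was high in both replicate 2 libraries, at 281 CPM in cKO and 235 CPM in WT, with 16.1 and 48.1 CPM in the other cKO libraries and 28.1 and 29.1 CPM in the other WT libraries. Setd2, the enzyme that trimethylates histone H3 lysine 36 along transcribed genes, followed the same order with 56.5, 249 and 89.1 CPM in cKO and 47.2, 112.5 and 46.6 CPM in WT. Nsd1, the gene of Sotos syndrome, and Nipbl, the cohesin loader of Cornelia de Lange syndrome, had log2 fold changes of 0.32 (SE 0.65) and 0.43 (SE 0.52).

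The chromatin genes shared features that the choice by name did not use. Their leading transcripts had a median length of 8270 bases, from 1971 in Hdac1 to 19827 in Kmt2d, against 3024 bases for all genes tested. They had a median of 30 exons, against 12. The median number of CpG dinucleotides in the RefSeq promoter windows of GRCm38.p6, from 250 bases before to 50 after the start, was 32 for the 27 genes with a window and 23 for all genes tested with one. The 5-base motif GGACT, a common form of the m6A consensus, was searched on the transcript strand only. It occurred in 39 of 40 chromatin genes (97.5%) and in 92.4% of all genes tested, and its density was 1.05 per kilobase in both sets. Across the 38 tested chromatin genes, Spearman's rho between log2 fold change and transcript length was 0.065, and between log2 fold change and motif density it was -0.107. These 38 points share the same 6 libraries and describe only these data.

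A further 138 chromatin genes came from the same and neighbouring complexes, and they too were listed with earlier results of these data known. Of the 100 that were tested, edgeR called 0 at an adjusted p below 0.05. At an unadjusted p below 0.05, 7 were higher (7%, against 7.16% of all genes tested and 15.8% of the chromatin genes above) and 1 was lower, against 5.41% of all. The log2 fold change was positive in 61 (61%, against 53.9% of all and 78.9% of the genes above), with a median of 0.30, and the replicate 2 library was highest in both groups in 15%, against 22.1% of all. Within the BAF complex outside the 9 genes above, 7 of 14 tested subunits were positive and 7 negative. Ss18l1, which encodes the BAF subunit CREST of postmitotic neurons, had 14.8, 28.0 and 36.8 CPM in cKO, against 6.74, 6.43 and 3.49 CPM in WT. Its groups did not overlap, and its log2 fold change was 2.21 (SE 0.48, adjusted p = 0.144 by edgeR). Actl6a, a BAF subunit of progenitors, had 14.8, 26.0 and 25.5 CPM in cKO, against 52.8, 45.0 and 67.5 CPM in WT, and did not overlap either (log2 fold change -1.31, SE 0.43, adjusted p = 0.271 by edgeR). Its neuronal counterpart Actl6b, added after its values were seen, overlapped, with 80.7, 154 and 117 CPM in cKO, against 85.4, 91.6 and 72.2 CPM in WT (log2 fold change 0.50, SE 0.47, adjusted p = 0.754 by edgeR). Ss18, the progenitor counterpart of Ss18l1, lay below the filter, with 0, 5 and 1 counts in cKO, against 2, 50 and 0 counts in WT. Phf10, also a progenitor subunit, had 24.2, 15.0 and 28.3 CPM in cKO, against 49.4, 35.3 and 46.6 CPM in WT (log2 fold change -0.96, SE 0.42, adjusted p = 0.423 by edgeR). Brd7, of the PBAF form, had 79.3, 70.1 and 55.2 CPM in cKO, against 109, 230.5 and 100.1 CPM in WT, with an edgeR adjusted p of 0.467. The subunits given a progenitor or neuronal role here are not a full list. Dpf1 and Smarcd3, also BAF subunits, overlapped between groups, with log2 fold changes of 1.15 (SE 0.76) and -0.505 (SE 0.41). Beside these subunits, 10 markers of dividing cells summed to between 240.5 and 532.5 CPM in cKO and between 984 and 1133 CPM in WT, and their part in these values was not tested.

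Outside BAF, the X-linked gene Suv39h1, which encodes a methyltransferase of histone H3 lysine 9, had 60.5, 40.04 and 55.2 CPM in cKO, against 10.1, 1.61 and 11.6 CPM in WT (log2 fold change 2.75, SE 0.69, adjusted p = 0.193 by edgeR).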

How the data were processed

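Each library has 1 transcript table from RSEM; RSEM 1.3.3, STAR 2.7.10b and mm10, the assembly also called GRCm38, stand in the tool list per the submitters' processing notes. The sources used here give no annotation release, strand setting or filter, so overlapping antisense genes cannot be told apart. The deposited expected counts are, per the file headers, estimated fragments of each transcript, the deposited TPM values are scaled to effective length and library total, and the deposited percent values give each transcript's share of its gene's TPM. Transcript length and mean fragment length were read from other length columns the authors deposited.

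Sums of expected counts over a gene's transcripts were rounded. The test was edgeR 4.0.16 in R 4.3.3 (quasi-likelihood, TMM scaling, filterByExpr with a minimum count of 10) on all 6 libraries with no covariate, with calls where p, adjusted by Benjamini-Hochberg over 5918 genes, was below 0.05; it was tested on simulated data. CPM uses TMM scaling, and 1 count equals 0.803 to 1.41 CPM. The approximate SE divides the size of the log2 fold change by the root of the F statistic. DESeq2 1.42.0, limma 3.58.1 on voom weights and on log2(TPM + 1), other scalings and filters, a replicate block, a batch term and left-out libraries were alternatives. Genes were named by rule: per direction the 6 with the smallest p, the highest and lowest level, paralog pairs, and genes below the filter; the other genes of the 40 are given more briefly. The 40 genes and all lists were chosen with earlier results of these data known. Positions and transcript sequences come from GENCODE and RefSeq annotations of GRCm38. No pair of libraries agreed within counting noise. The result of 1 other chromatin gene that the rule names is not reported here.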

Additional observations from a re-analysis of the deposited data

How the results depend on the processing

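The count of 0 called chromatin genes held under each alternative except DESeq2, which called 1 higher and 2 lower; the lowest adjusted p in the other settings lay between 0.109 and 0.335, and 3 to 7 of the chromatin genes had an unadjusted p below 0.05. Of the 138 other chromatin genes, DESeq2 called 3 higher and limma on log2(TPM + 1) called 1. Over all genes, where 29 were called higher and 25 lower, the counts were 12 and 10 with no filter and also with a filter of 1 CPM, 191 and 109 with DESeq2, 11 and 8 with a term for the replicate 2 libraries, and 0 and 0 without both of them, where 740 genes had an unadjusted p below 0.05. Leaving out 1 library at a time gave 0 to 28 higher and 0 to 14 lower. A replicate block, with the number from the titles, gave 1 gene called higher and 0 lower, with 763 at an unadjusted p below 0.05, and 0 chromatin genes. The numbers were not taken to pair the libraries: same-numbered libraries correlated in their deviations at 0.05, 0.46 and 0.16, and the first library of each genotype and cKO replicate 3 correlated better with another number. The sign of several small or uneven log2 fold changes turned, and the cause was not tested. Without both replicate 2 libraries it was 0.71 for Chd9, 0.16 for Smarca4, 0.22 for Smarcc2, 1.15 for Kmt2a, 0.15 for Chd5 and 0.05 for Bptf; with no filter Trrap was -0.03. With 1 library left out, the range was -1.82 to 0.31 for Chd9, -0.59 to 0.40 for Smarca4, -1.50 to 2.25 for Kmt2a and -0.067 to 0.10 for Hdac2; WT replicate 2 was the library whose absence turned Chd9 and Smarca4. Kmt2a was also 0.35 in limma-voom, 0.16 on log2(TPM + 1), 0.31 with the block and 0.50 with the batch term, and 0.06 without cKO replicate 1. Hdac2 was -0.0019 with RLE scaling, -0.27 with upper-quartile scaling and -0.036 on log2(TPM + 1). Under upper-quartile scaling the median over all genes was -0.22, with 25 of 38 chromatin genes positive and their median at 0.34. At 670462 to 1268430 counts a library, genes near 10 counts such as Arid1b and Chd9 carry large counting error.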
